A study of Mus musculus with 9 samples.

Results

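The genes described here are 9 intermediate filament genes: the simple keratins Krt7, Krt8, Krt18, Krt19, Krt20 and Krt23, the mesenchymal filament gene Vim, the type VI filament gene Nes and the nuclear lamin gene Lmna. They were taken by name, not by their values, and each matched 1 Ensembl identifier among the 56398 features of the count table. RNA sequencing covered 9 BALB/c mouse samples in 3 groups of 3. Sham samples are healthy colon. Model samples are CT26 tumours of mice given saline at 6 g/kg once a day (CT26 is an undifferentiated colon carcinoma line of BALB/c origin). AC samples are CT26 tumours of mice that received a 2:1 mixture of Astragalus and Curcuma phaeocaulis Valeton, herbs of Chinese medicine, also at 6 g/kg once a day. A CT26 tumour holds host stroma, vessels and immune cells beside the injected cells. The labels do not tie the 3 samples of a group to separate animals, so p-values here measure only the spread among the samples, which may be technical.

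Intermediate filaments are rope-like polymers that give cells mechanical strength, and the genes used differ by cell type. Keratins polymerise only as pairs of a type I and a type II chain. Krt8 and Krt18 are the basic pair of simple epithelia, Krt19 is a further type I chain, and Krt20 is the type I chain of differentiated intestinal surface cells. Vimentin, the product of Vim, is the filament of fibroblasts, endothelium, leukocytes and mesenchymal tumour cells. Nestin (Nes) copolymerises with vimentin in progenitor cells and new vessels, and lamins A and C (Lmna) line the inner nuclear membrane.

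Sequence before the annotated start is shown for 3 members with different courses in the tumours: Krt20, the keratin with the highest level left there, Krt18, a pair-forming keratin that fell, and Nes, which rose. These are RefSeq sequences of GRCm38.p6, 5′ to 3′ on the strand of the gene, taken from the 250 bases before the start and without bases that GENCODE M21 places in an exon. They are chr11:99438154-99438403 (minus strand), chr15:102027966-102028179 (plus strand) and chr3:87970843-87971077 (plus strand). Capitals mark the TATA box in Krt20, the E-box (as CACCTG) in Krt18 and the GC box (as CCGCCC) in Nes.
Krt20: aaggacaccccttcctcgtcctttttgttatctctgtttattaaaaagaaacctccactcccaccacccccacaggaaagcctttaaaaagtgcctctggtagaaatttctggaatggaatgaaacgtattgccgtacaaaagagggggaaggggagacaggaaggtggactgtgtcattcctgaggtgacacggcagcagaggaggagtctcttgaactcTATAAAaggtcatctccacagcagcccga
Krt18: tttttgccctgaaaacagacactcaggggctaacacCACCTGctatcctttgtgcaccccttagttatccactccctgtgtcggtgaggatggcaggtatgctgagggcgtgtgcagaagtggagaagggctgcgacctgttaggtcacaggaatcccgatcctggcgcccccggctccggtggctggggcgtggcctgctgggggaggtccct
Nes: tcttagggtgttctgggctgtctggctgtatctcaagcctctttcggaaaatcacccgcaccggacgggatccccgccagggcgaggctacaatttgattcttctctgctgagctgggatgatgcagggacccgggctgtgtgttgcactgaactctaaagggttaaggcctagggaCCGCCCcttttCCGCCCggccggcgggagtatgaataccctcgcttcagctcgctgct
Of the 9 members, 8 had an entry in the promoter table, and Krt19 was the other. Letters were searched on both strands in the 250 bases before the start, with exon bases kept. Of these bases GENCODE M21 leaves 0 outside exons in Vim, 45 in Krt7, 110 in Krt8 and at least 214 in the others. The matches of Vim and Krt8 given below thus lie in annotated exons, and most of those of Krt7 lie at least partly in them. The TATA box TATAAA stood in Krt20 at -29 to -24 and in Vim at -32 to -27, and in 12.4% of the 32851 promoters. The GC box GGGCGG was in Krt7, Nes and Lmna and in 32.7% of promoters. The E-box CAGGTG, which ZEB and SNAIL factors bind, was in Krt7, Krt8, Krt18 and Krt23 and in 17.2% of promoters. The AP-1 letters TGANTCA were in 0 of the 8 members and 6.7% of promoters, and the caudal-type letters TTTATG were in Krt23 and 10.8% of promoters. None of these matches overlapped a match to another motif in the same member. A match describes the letters and not binding.

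Total counts per library ran from 15690038 to 23476056. Libraries of a group were not alike in tissue make-up, measured here in FPKM, the deposited counts scaled for gene length and library total. Sham 1 had 233 FPKM of summed B cell markers against 29.6 and 12.4 in the other sham libraries, and 36.4 FPKM of smooth muscle and pericyte markers against 369 and 389.9. The 10 markers of colonic epithelium summed to 10440 to 16030 FPKM in colon, to 127 in model 1 and 370.3 in AC 3, and to 8.69 and 7.9 in the other model tumours and 12.6 and 9.55 in the other AC tumours. In bulk tissue, fewer cells of a type and less RNA per cell cannot be told apart.

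In healthy colon the keratin transcripts were abundant and Vim and Nes were low. In model tumours Vim came first, all 6 keratins were lower and Nes and Lmna were higher. All 9 members passed the test between model tumours and colon (edgeR's quasi-likelihood test, Benjamini-Hochberg adjusted p under 0.05 over 18228 genes), 6 lower and 3 higher. Of all genes tested 69.7% were called, 36.8% higher and 32.9% lower. Colon and tumour libraries were fully apart for 9 of 9 members and for 76.7% of all genes (41.3% higher, 35.4% lower). The calls are to be read against those shares. Krt23 passed the filter on low counts through colon alone, so it had to differ. Nes, with 8 counts in sham 1, passed only because of tumours, and Krt19, with 7 in model 3, only because of colon. The filter thus favoured their direction too.

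**Figure D1:**
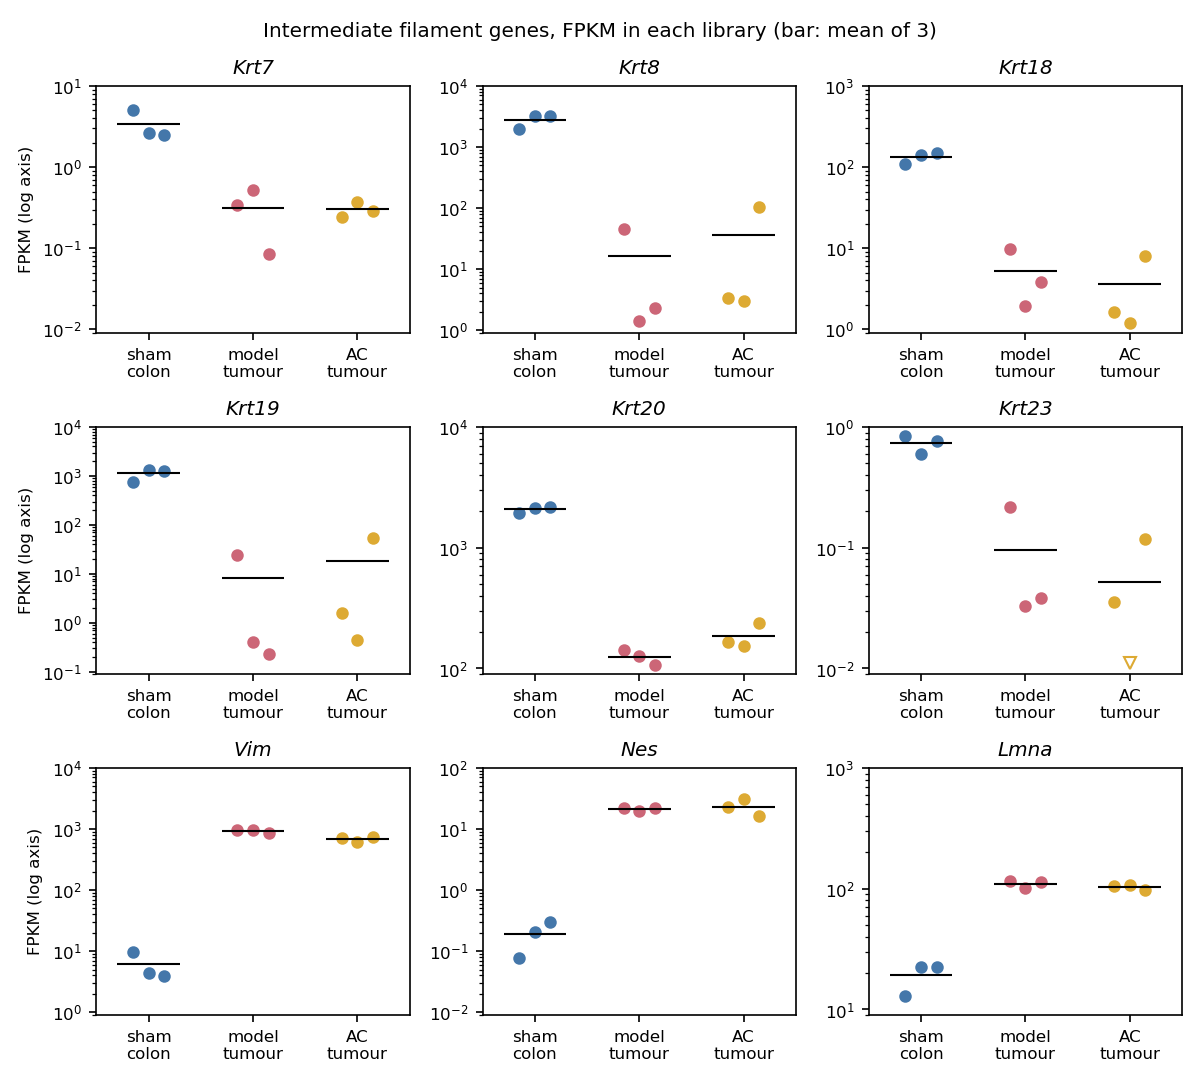
FPKM of each of the 9 genes (log axes that differ between panels) in 3 sham colon, 3 model tumour and 3 AC tumour libraries, with a bar at the group mean and an open triangle for a library with 0 counts. Colon and tumour libraries are apart in every panel, and model 1 and AC 3 stand above the other tumours of their group for Krt8 and Krt19 and lie close to the others for Vim and Lmna.

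Krt8, the type II chain of simple epithelial filaments (ENSMUSG00000049382, chromosome 15, 101996698 to 102004482, minus strand, in GENCODE M21 on GRCm38 as all positions here), measured 1940.4, 3225 and 3227 FPKM in sham 1, 2 and 3 and 44.7, 1.44 and 2.32 in model 1, 2 and 3. The groups were far apart, and model 1 was well above the other model tumours. The log2 fold change against colon was -7.99 (SE 1.66, edgeR adjusted p 0.00482). Without model 1 it was -11.16.

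Krt18, the type I partner of Krt8 (ENSMUSG00000023043, chromosome 15, 102028180 to 102032027, plus strand), measured 110.1, 141 and 147 FPKM in colon and 9.9, 1.93 and 3.8 in model tumours. Model 1 was again the highest of its group, by less than for Krt8. Its log2 fold change was -5.25 (SE 0.66, edgeR adjusted p 0.000574), and -6.16 without model 1.

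Krt19, a type I chain of ducts and the intestinal lining (ENSMUSG00000020911, chromosome 11, 100140810 to 100148665, minus strand), measured 767, 1319 and 1286 FPKM in colon and 24.2, 0.415 and 0.229 in model tumours. The values of model 2 and 3 rested on 15 and 7 counts. The log2 fold change was -7.64 (SE 2, edgeR adjusted p 0.0129), and -12.33 without model 1. Without sham 1, the colon library with the least Krt19, the call was lost (edgeR adjusted p 0.0814) at a fold change of -7.93.

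Krt20 followed another course (ENSMUSG00000035775, chromosome 11, 99428403 to 99438150, minus strand). It measured 1955, 2134 and 2168 FPKM in colon and 142, 126 and 108 in model tumours. Every model tumour thus kept at least 108 FPKM, including model 2 and 3, where Krt8 and Krt19 were between 0.229 and 2.32. The log2 fold change was -4.66 (SE 0.22, edgeR adjusted p 2.15e-05) and stayed between -4.76 and -4.50 with single libraries left out. Its count was at least 3429 in every library.

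Krt7, a type II chain of ducts and bladder (ENSMUSG00000023039, chromosome 15, 101411043 to 101430313, plus strand), was low throughout, at 4.99, 2.62 and 2.46 FPKM in colon and 0.344, 0.517 and 0.086 in model tumours. Model 1 was not the highest of its group here, and the 3 values rested on 57, 71 and 10 counts. Its log2 fold change was -3.97 (SE 0.65, edgeR adjusted p 0.00172). An antisense gene, Gm671, shares 77 exon bases with Krt7 and had at most 9 counts in a library.

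Krt23, a type I keratin (ENSMUSG00000006777, chromosome 11, 99477974 to 99493137, minus strand), measured 0.835, 0.596 and 0.769 FPKM in colon and 0.218, 0.0328 and 0.0387 in model tumours, from 21, 16 and 24 and 8, 1 and 1 counts. In model 2 and 3 it lay below the level of 3 counts, 0.0984 and 0.116 FPKM, the limit that such depth allows. For Krt23 the log2 fold change was -3.35 (SE 0.64, edgeR adjusted p 0.0034), and -4.76 without model 1.

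Vim (ENSMUSG00000026728, chromosome 2, 13573927 to 13582826, plus strand) measured 9.8, 4.42 and 3.98 FPKM in colon and 969, 956 and 858 in model tumours, above every other member there. Sham 1, the colon library with the high B cell markers, had the most Vim of its group. Against colon, the log2 fold change of Vim was 6.67 (SE 0.44, edgeR adjusted p 4.92e-05).

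Nes (ENSMUSG00000004891, chromosome 3, 87971078 to 87980451, plus strand) measured 0.0775, 0.209 and 0.297 FPKM in colon, from 8, 23 and 38 counts, and 22.4, 19.97 and 22 in model tumours. Its level in tumours was far below that of Vim, while its log2 fold change was 6.14 (SE 0.44, edgeR adjusted p 6.60e-05).

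Lmna (ENSMUSG00000028063, chromosome 3, 88480147 to 88509956, minus strand) measured 13, 22.5 and 22.6 FPKM in colon and 115, 100.8 and 114 in model tumours. It was already present in colon, lowest in sham 1, and the groups did not overlap. Its log2 fold change was 1.89 (SE 0.26, edgeR adjusted p 0.000831), beside a median of 0.12 over all genes. Without scaling factors it was 2.5, beside a median of 0.72.

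**Figure D2:**
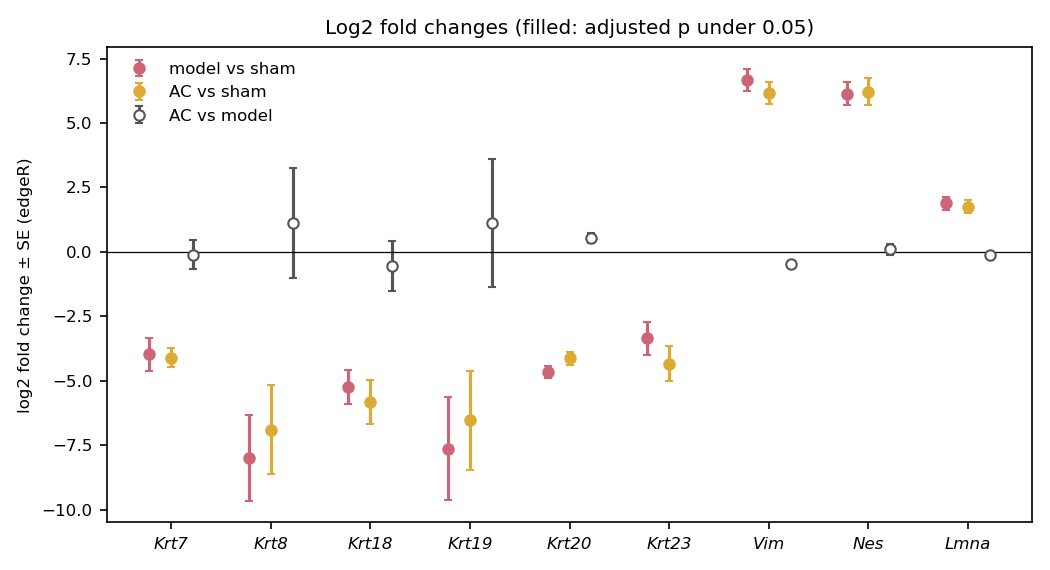
Log2 fold change of each gene with its SE from edgeR for model against sham, AC against sham and AC against model, with filled points where the adjusted p is under 0.05. The 6 keratins lie below 0 and Vim, Nes and Lmna above 0 against colon, Krt8 and Krt19 have wide error bars, and no point of AC against model is filled.

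Ordered by mean FPKM, colon had Krt8 (2797), Krt20 (2086), Krt19 (1124), Krt18 (133), Lmna (19.4), Vim (6.07), Krt7 (3.36), Krt23 (0.733) and Nes (0.195). Neighbours overlapped between libraries for Krt8 with Krt20 and for Vim with Krt7. In model tumours the order was Vim (928), Krt20 (125), Lmna (109.8), Nes (21.4), Krt8 (16.2), Krt19 (8.27), Krt18 (5.21), Krt7 (0.316) and Krt23 (0.0964). There Krt20 overlapped with Lmna, Nes with Krt8, Krt8 with Krt19, Krt19 with Krt18 and Krt7 with Krt23. Of the summed FPKM of the 9 genes, Vim made up 0.204%, 0.0646% and 0.058% in colon and 73%, 79.2% and 77.5% in model tumours.

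The make-up of the keratin transcripts changed with their amount. The 6 keratins summed to 4778, 6822 and 6831 FPKM in colon and to 221, 130.2 and 114 in model tumours. Krt20 made up 40.9%, 31.3% and 31.7% of that sum in colon and 64.1%, 96.7% and 94.3% in model tumours. The groups did not overlap (50.4 percentage points higher in model tumours, exact two-sided permutation test, p = 0.1, adjusted 0.133 over 12 tests, which are 4 ratios in 3 comparisons). An exact permutation test of 3 against 3 libraries cannot give a p below 0.1. Krt8 made up 40.6 to 47.3% of keratin in colon and 1.11 to 20.2% in model tumours, and Krt19 16.1 to 19.3% and 0.2 to 10.9%.

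**Figure D3:**
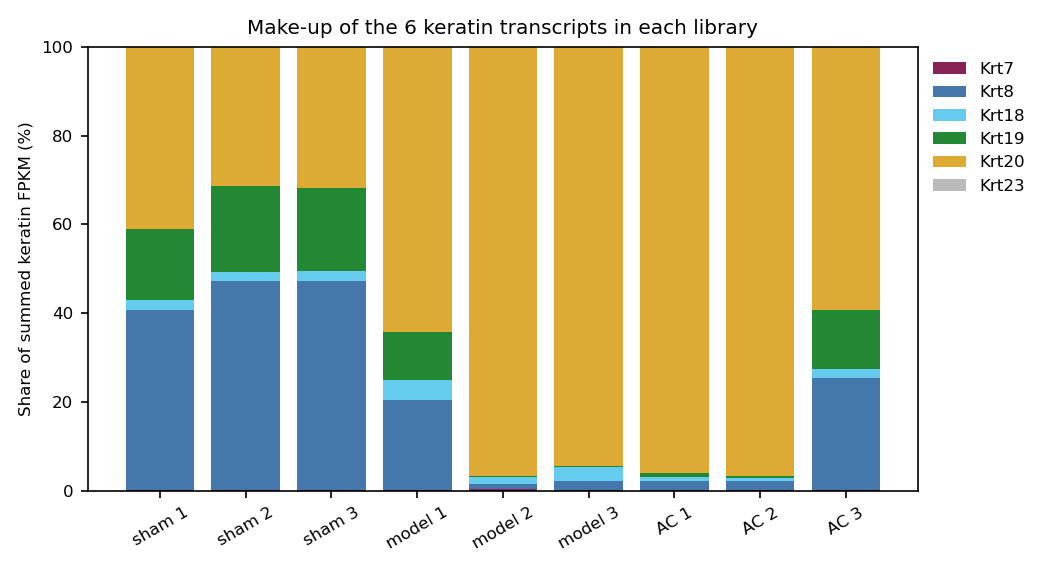
Share of each keratin in the summed FPKM of the 6 keratins (bars add up to the whole) in each of the 9 libraries. Krt8 and Krt19 fill most of each colon bar and Krt20 most of each tumour bar, while model 1 and AC 3 hold 20.2% and 25.4% of Krt8.

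Set against Epcam, an adhesion protein of colonic epithelial cells, the keratins parted. This measure was added after the values had been seen and has no test. Krt19 per Epcam was 0.662 to 1.32 in colon, 0.825 to 1.54 in model tumours and 1.37 to 2.91 in AC tumours. Krt8 per Epcam was 1.67 to 3.31, 2.24 to 15.6 and 2.62 to 9.69. Krt20 per Epcam was 1.69 to 2.22 in colon, 7.1 in model 1 and 6.09 in AC 3, and 250.2 and 726 in model 2 and 3 and 301 and 491 in AC 1 and 2. Epcam itself had 20 and 5 counts in model 2 and 3 and 20 and 10 in AC 1 and 2, so these ratios are rough. Krt18 per Epcam was 0.095 to 0.151 in colon, 0.496, 3.83 and 25.6 in model tumours and 2.98, 3.83 and 0.205 in AC tumours. Krt7 per Epcam was 0.00252 to 0.00431 in colon, 0.0172, 1.03 and 0.579 in model tumours and 0.449, 1.19 and 0.00741 in AC tumours. Krt20, Krt18 and Krt7 were thus all far higher relative to Epcam in those 4 tumours than in colon, and Krt19 was not.

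**Figure D4:**
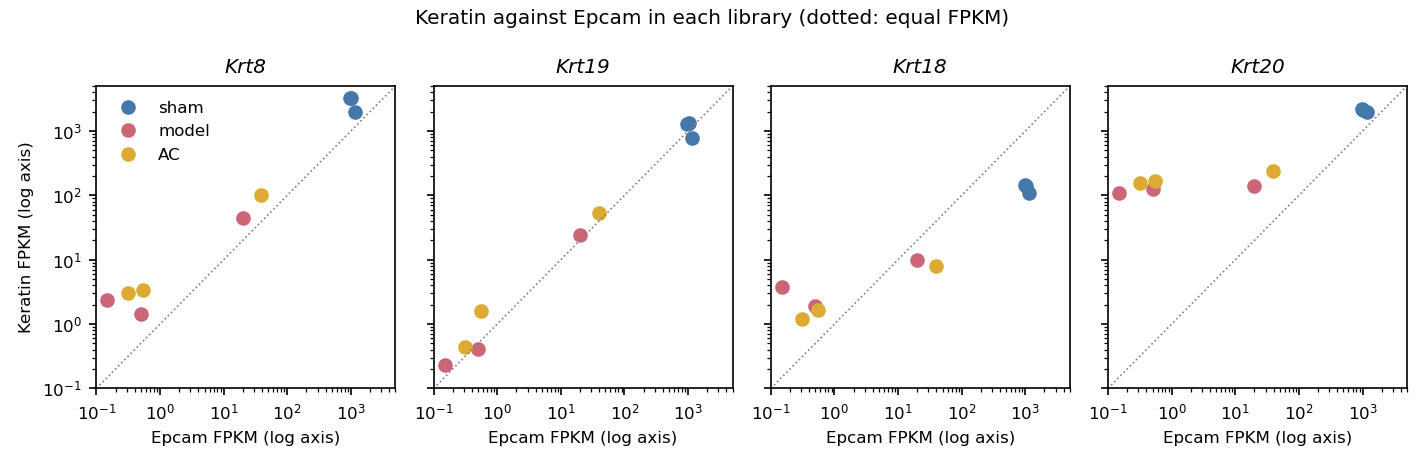
FPKM of Krt8, Krt19, Krt18 and Krt20 against FPKM of Epcam (both log axes, same range in each panel) in 9 libraries, with a dotted line where both are equal. Krt19 stays near the line, Krt18 is below it in colon and above it in 4 tumours, and Krt20 stays between 108 and 239 FPKM in the tumours while Epcam spans 0.149 to 39.3 FPKM.

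The ratio of Krt8 to its partner Krt18 was 17.6, 22.9 and 21.9 in colon and 4.52, 0.748 and 0.612 in model tumours. The groups did not overlap (log2 difference -4.02, exact two-sided permutation p = 0.1, adjusted 0.133). In model 2 and 3 Krt8 rested on 55 and 75 counts and Krt18 on 54 and 90. A processed pseudogene, Krt8-ps, matches 48.1% of the Krt8 transcript at 98.6% identity, so reads of the pair could be split. It had 87, 165 and 177 counts in colon, where Krt8 had at least 61086, and at most 5 in a tumour. The noncoding gene Gm36026 overlaps exons of Krt8 on the other strand and had 2 to 53 counts.

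The ratio of the summed keratins to Vim was 488, 1543 and 1718 in colon and 0.228, 0.136 and 0.133 in model tumours, a log2 difference of -12.73 without overlap (exact two-sided permutation p = 0.1, adjusted 0.133). The ratio of Lmna to the B-type lamins Lmnb1 plus Lmnb2 was 0.384, 0.776 and 0.812 in colon and 1.66, 1.72 and 1.48 in model tumours. This log2 difference was 1.37, also without overlap (exact two-sided permutation p = 0.1, adjusted 0.133). Sham 1 was the lowest colon library in both ratios.

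**Figure D5:**
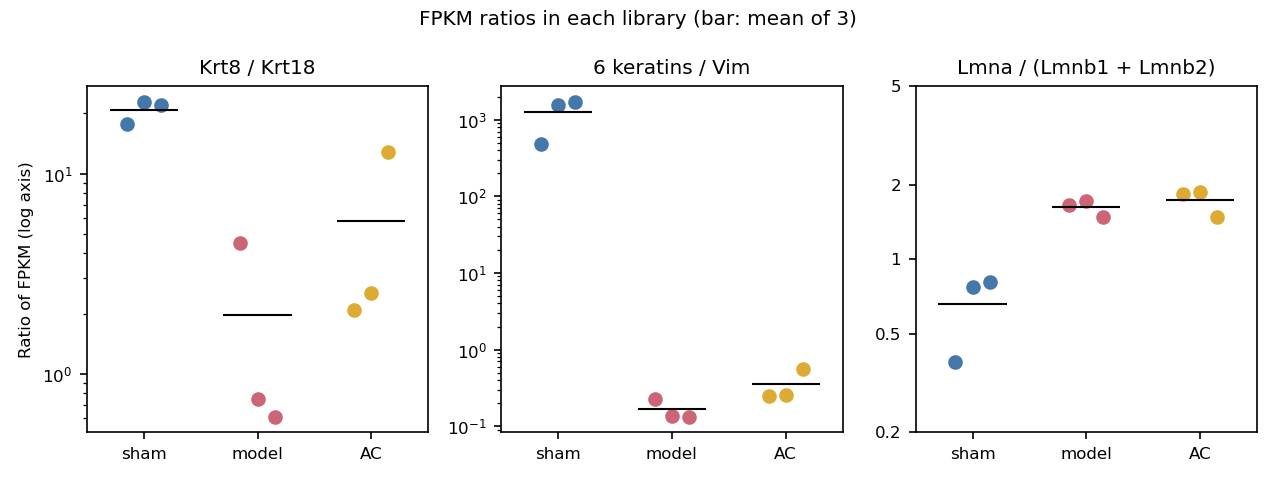
Ratios of FPKM (log axes) of Krt8 to Krt18, of the 6 keratins to Vim, and of Lmna to Lmnb1 plus Lmnb2 in each library, with a bar at the group mean. Both keratin ratios are lower and the lamin ratio is higher in every tumour than in every colon library, and AC 3, at 12.8, has the highest tumour value of Krt8 to Krt18.

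AC tumours were compared with model tumours for an effect of the herb pair, and edgeR called no member with all 6 libraries. It called no gene of 17137 (0% background). An unadjusted p under 0.05 was found for 2253 genes, and DESeq2 called 305 and limma-voom 0. Krt23 did not pass the filter on low counts and was not tested, which leaves 8 members. Model and AC libraries were fully apart for 2 of these 8, Vim and Krt20, and for 19.1% of all genes (9.47% higher, 9.59% lower), so that count is near the background.

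Vim measured 969, 956 and 858 FPKM in model tumours and 700.5, 611 and 728 in AC tumours. Each AC library was below each model library. The log2 fold change was -0.48 (SE 0.1, unadjusted p 0.00119, edgeR adjusted p 0.216) and did not pass. DESeq2 called Vim (adjusted p 0.00129), and so did edgeR without AC 3 (adjusted p 0.0399). Over all its alternatives the adjusted p ran from 0.00129 to 0.935. Fibroblasts express Vim, and their 8 markers summed to 213 to 275 FPKM in model and 142 to 222 in AC tumours, with 8 of 8 fold changes below 0 and none called. Macrophages express it too, and their 7 markers summed to 696 to 1081 FPKM in model and 985 to 1364 in AC tumours, with 5 of 7 fold changes above 0 and none called. The part of these cells in the Vim values was not tested.

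Krt20 measured 142, 126 and 108 FPKM in model tumours and 165, 153 and 239 in AC tumours. Each AC library was above each model library, and AC 3 was the highest. The log2 fold change was 0.54 (SE 0.19, unadjusted p 0.0233, edgeR adjusted p 0.32) and did not pass. Without AC 3 it was 0.31, and by DESeq2 the adjusted p was 0.0806.

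Krt8 measured 3.42, 3.03 and 103 FPKM in AC 1, 2 and 3, and Krt19 1.6, 0.447 and 53.9. AC 3 was far above the other AC tumours, as model 1 was among model tumours, and the groups overlapped. The log2 fold changes of AC against model were 1.13 (SE 2.12, edgeR adjusted p 0.854) for Krt8 and 1.12 (SE 2.46, adjusted p 0.877) for Krt19. Without AC 3 they were -2.38 and -3.06, and without model 1 4.26 and 5.79. Markers of colonic epithelium were high in the same 2 tumours, and their part in these values was not tested. Krt18 measured 1.63, 1.2 and 8.05 FPKM in AC tumours (log2 fold change -0.56, SE 0.96, edgeR adjusted p 0.837), and 0.32 without model 1.

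Nes measured 22.6, 31.1 and 16.5 FPKM in AC tumours, on both sides of the narrow range of model tumours (log2 fold change 0.1, SE 0.21, edgeR adjusted p 0.873). Lmna measured 105, 107 and 98.4 FPKM (-0.11, SE 0.08, edgeR adjusted p 0.586) and overlapped with model tumours. Krt7 measured 0.246, 0.371 and 0.291 FPKM (-0.11, SE 0.56, edgeR adjusted p 0.945), also with overlap. Krt23 had 1, 0 and 3 counts in AC tumours, and 3 counts in AC 2, the library with 0, would be 0.122 FPKM.

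The ratio of summed keratins to Vim was 0.246, 0.259 and 0.556 in AC tumours, each above each model tumour (log2 difference 1.03, exact two-sided permutation p = 0.1, adjusted 0.133). Krt20 made up 96%, 96.8% and 59.2% of keratin in AC 1, 2 and 3, and the groups overlapped (-1.06 percentage points, exact permutation p = 0.9, adjusted 0.9). The ratio of Krt8 to Krt18 was 2.1, 2.53 and 12.8 (log2 difference 1.68, exact permutation p = 0.3, adjusted 0.36). The ratio of Lmna to B-type lamins was 1.84, 1.86 and 1.48 (log2 difference 0.09, exact permutation p = 0.6, adjusted 0.655). Vim made up 70.0%, 67.3% and 58.4% of the 9 members.

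AC tumours against colon share the colon libraries with the first comparison, so the values stand side by side and are no second test. All 9 members were called, 6 lower and 3 higher, with 68.2% of 17832 genes called (35.5% higher, 32.7% lower). Libraries were fully apart for 9 of 9 members and for 75.8% of genes (40.5% higher, 35.4% lower). Here too Krt23 passed the filter on low counts through colon alone, and Nes only because of tumours. The log2 fold changes were -6.89 for Krt8, -5.83 for Krt18, -6.54 for Krt19, -4.13 for Krt20, -4.11 for Krt7, -4.33 for Krt23, 6.17 for Vim, 6.22 for Nes and 1.76 for Lmna. Without sham 1 the calls of Krt8 (-7.25, edgeR adjusted p 0.07) and Krt19 (-6.91, adjusted p 0.101) were lost, and without sham 3 that of Krt19 (-6.48, edgeR adjusted p 0.0548), at fold changes close to those with all libraries. Without AC 3 the fold changes were -10.41 for Krt8, -7.19 for Krt18, -10.73 for Krt19 and -5.54 for Krt23. By mean FPKM the order in AC tumours was Vim (679.9), Krt20 (186), Lmna (104), Krt8 (36.4), Nes (23.4), Krt19 (18.7), Krt18 (3.63), Krt7 (0.303) and Krt23 (0.0516), where each neighbour from Lmna to Krt18 overlapped with the next.

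The other keratins were nearly absent. Of 48 further keratin genes, 39 had under 10 counts in every library, 18 of them 0 in all. In model tumours against colon 5 were tested, of which 1 rose, 3 fell and 1 was not called. Krt12, Krt27 and Krt222, the 3 that fell, passed the filter on low counts through colon alone and Krt80 through tumours alone, so they had to differ, and nothing is read from this count. Krt80, a type II keratin of many epithelia, rose from 0.0097, 0.0456 and 0.0785 FPKM to 5.08, 8.24 and 6.05 (6.48, SE 0.54, edgeR adjusted p 0.00011). It measured 5.42, 4.84 and 3.86 FPKM in AC tumours and was above Krt8 in 4 of the 6 tumours. Krt12, the corneal type I keratin, fell from 7.19, 4.06 and 3.14 FPKM to 0.23, 0.0277 and 0.0327 (-6.04, SE 0.76, edgeR adjusted p 0.000576). Krt27, an inner root sheath keratin, had 27, 23 and 22 counts in colon and 0 in all 6 tumours. Of 8 squamous and skin markers 6 had under 10 counts in every library, and Krt5, the basal squamous keratin, had 0 in all.

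Cytoplasmic filaments of other cell types were called about as often as other genes. Of 11 listed genes 7 were tested in model tumours against colon, of which 2 rose, 3 fell and 2 were not called (median log2 fold change -1.12, against 0.12 over all genes), against 69.7% of all genes called, 36.8% higher and 32.9% lower. Nefm, the medium neurofilament chain, rose from 0.0215, 0.101 and 0.139 FPKM to 6.79, 4.77 and 8.46 (5.59, SE 0.56, edgeR adjusted p 0.000217). With 2 counts in sham 1, Nefm passed the filter on low counts only because of tumours, so the filter favoured its rise. Nefl, the light chain, rose from 0.166, 0.845 and 0.713 to 8.14, 7.18 and 9.22 (3.2, SE 0.54, edgeR adjusted p 0.00199). Des, the muscle filament desmin, measured 3.25, 38.3 and 41.4 FPKM in colon and 1.7, 1.22 and 1.07 in model tumours (-4.99, SE 0.97, edgeR adjusted p 0.00354). Sham 1 was far below the other colon libraries for Des, as for the smooth muscle markers given above.

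Desmosomal partners of keratin were listed as well. Of 16 plakin and desmosome genes 10 fell, 1 rose and 5 were not called in model tumours (median -2.95, against 0.12 over all genes), against 69.7% of all genes called, 36.8% higher and 32.9% lower. Dsp, desmoplakin, which anchors keratin at desmosomes, measured 72.2, 117 and 120.0 FPKM in colon, 4.26, 0.0744 and 0.0565 in model and 0.122, 0.033 and 6.87 in AC tumours (model against colon -6.69, SE 1.85, edgeR adjusted p 0.0162). It was high in model 1 and AC 3, as Krt8 was. The log2 fold changes were -7.15 for Dsg2, a desmosomal cadherin, -6.8 for Evpl, envoplakin, and -6.52 for Pkp2, a plakophilin, all called. Several of the genes that fell, Dsp, Dsg2, Evpl and Pkp2 among them, passed the filter on low counts only because of colon. The filter thus favoured their fall, and this count and median are not read as a result.

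Of 17 lamin and nuclear envelope genes 10 rose, 2 fell and 5 were not called in model tumours (median 0.99, against 0.12 over all genes), against 69.7% of all genes called, 36.8% higher and 32.9% lower. Syne3, a nesprin that links the nucleus to the cytoskeleton, rose from 0.37, 0.725 and 0.814 FPKM to 48.1, 35.1 and 37.8 (5.37, SE 0.37, edgeR adjusted p 5.51e-05). Sun2, an inner nuclear membrane protein that binds nesprins, rose from 4.26, 2.92 and 2.82 to 26.7, 28.7 and 23.6 (2.38, SE 0.2, edgeR adjusted p 0.000111). The B-type lamin Lmnb1 rose (0.99, SE 0.28, edgeR adjusted p 0.0173) and Lmnb2 was not called (-0.42, SE 0.32, edgeR adjusted p 0.279). The 2 that fell were Fntb, a farnesyltransferase subunit (-1.2, SE 0.27, edgeR adjusted p 0.00678), and Icmt, a methyltransferase (-0.5, SE 0.16, edgeR adjusted p 0.0322). Both act on prelamin A, as do Fnta, the other subunit (-0.11, SE 0.15, edgeR adjusted p 0.55), and the protease Zmpste24 (-0.19, SE 0.12, edgeR adjusted p 0.187), which were not called. In FPKM, which has no scaling factor, Icmt measured 9.05, 11.9 and 12.3 in colon and 11.9, 11.9 and 12.2 in model tumours. The fall of Icmt thus rests on the scaling. Fntb measured 3.96, 7.1 and 7.13 FPKM in colon and 4.03, 3.99 and 4.15 in model tumours, with sham 1 below each model tumour.

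Regulators of the epithelial and mesenchymal states were also listed. All 14 epithelial regulators fell in model tumours (median -7.02, against 0.12 over all genes), where 32.9% of all genes fell. Most of them, Cdx2 included, passed the filter on low counts only because of colon, so this count and median are not read as a result. Klf4 passed in tumours too. Cdx2, the intestinal homeobox factor, went from 122, 141 and 140.2 FPKM to 2.66, 0.0908 and 0.0804 (-7.67, SE 1.4, edgeR adjusted p 0.00274). Klf4, a factor of differentiated epithelium, kept 52.3, 59.7 and 41.5 FPKM in model and 49.9, 50.4 and 44.2 in AC tumours. In colon it had 363, 322 and 313 (-3.3, SE 0.21, edgeR adjusted p 4.25e-05). Klf5 kept 15.5, 12.9 and 10.2 FPKM in model and 11.5, 14.3 and 18.1 in AC tumours. In colon it had 105.9, 71.3 and 73.3 (-3.29, SE 0.26, edgeR adjusted p 9.04e-05). Both were thus present in every tumour, as Krt20 was. All 7 mesenchymal regulators rose (median 5.15), where 36.8% of all genes rose. Prrx1, Twist1, Twist2 and Snai1 passed the filter on low counts only because of tumours, so this count and median are not read as a result either. Prrx1, a homeobox factor of mesenchyme, went from 0.0899, 0.0369 and 0.0363 FPKM to 51.7, 49.7 and 50.9 (9.27, SE 0.39, edgeR adjusted p 1.85e-05). In AC against model tumours 0 of 5 tested epithelial regulators, 0 of 7 mesenchymal regulators, 0 of 17 nuclear envelope, 0 of 14 desmosome, 0 of 6 other filament and 0 of 2 other keratin genes were called.

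By the root mean square difference between centred log2 profiles over the 9 libraries, among 11178 genes, Krt8 was nearest to Ugt2b34 (0.20), Myo15b (0.30) and Vil1 (0.30). Among members Krt8 differed from Krt19 by 0.47, from Krt18 by 1.96 and from Krt20 by 2.73. Krt20 was nearest to Cmbl (0.14) and Mpp7 (0.17), and differed from Krt7 by 0.63. Vim was nearest to Cdk14 (0.21), Amigo2 (0.23) and Pcdh19 (0.24), and Nes to Emilin2 (0.21), Map6 (0.23) and Pcolce (0.23). Vim and Nes differed by 0.79. Lmna was nearest to Pkmyt1 (0.089) and Emilin1 (0.09). All 9 points share the contrast of colon and tumour.

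Markers of other cell types that use these filaments were measured in the same libraries. In model tumours against colon 7 of 8 fibroblast, 6 of 7 macrophage and 5 of 7 endothelial markers rose, while 7 of 7 pericyte and smooth muscle, 4 of 4 B cell and 9 of 10 colonic epithelial markers fell, against 69.7% of all genes called, 36.8% higher and 32.9% lower. Of 6 T and NK cell markers 1 rose and 3 fell, and the 1 enteric glia marker tested was not called. Some markers, such as Epcam and Ms4a1, passed the filter on low counts only because of colon, and Cldn5 only because of tumours. The filter thus favoured their direction, and these counts are not read as a result. Summed fibroblast markers were 14.9 to 24.9 FPKM in colon and 213 to 275 in model tumours, macrophage markers 74.7 to 552 and 696 to 1081, and endothelial markers 4.83 to 4.99 and 29.4 to 31.7. Mesothelium has both simple keratins and Vim, and 2 of its 6 markers, Msln and Wt1, were tested and called higher. Wt1, with 2, 2 and 0 counts in colon, passed the filter through tumours alone and so had to differ. Msln went from 4.91, 1.65 and 1.02 to 105, 142 and 107 FPKM. The mesothelial marker Upk3b was at most 0.458 FPKM in any library. The part of these cells in the values of Vim, Nes and Lmna was not tested.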

How the data were processed

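The authors deposited raw read counts per gene for 9 libraries, made with featureCounts 1.5.0-p3 per the submitters' processing notes, which also name mm9. They also deposited FPKM values, which equal these counts divided by gene length and library total. The sources used here do not name the aligner or the strand setting. Gene lengths implied by FPKM lay within 1% of the GENCODE M21 (GRCm38) exon union for 96.8% of 22279 genes, so symbols and positions are from GENCODE M21, and 54409 of 54446 Ensembl identifiers were paired with a symbol. The authors' own 1952 further features stayed in the library sizes and tests. Sample titles gave the groups. Each pair of groups was fitted on its own 6 samples using edgeR 4.0.16 (R 4.3.3) with TMM factors, filterByExpr and robust quasi-likelihood fits, and p-values were adjusted by Benjamini-Hochberg over all genes tested. The SE is the absolute log2 fold change over the square root of F. Ratios of FPKM were tested by exact two-sided permutation. Alternatives included DESeq2 1.42.0, limma 3.58.1 (voom), other scaling factors, no filter and libraries left out. On simulated data, edgeR recovered 52.7% of 2-fold and 82.3% of 4-fold changes for AC against model tumours over 17137 genes. It recovered 4.3% and 50.3% for model against sham over 18228 genes, and 2.3% and 47.0% for AC against sham over 17832 genes. Mean false calls were 13.0 for AC against model, 6.3 for model against sham and 5.0 for AC against sham. Each gene was simulated independently, so deviations that libraries share are not part of these rates. Replicates were compared: none were identical or within sampling noise (chi-square per degree of freedom at least 3.06). Floors of 3 counts cover counting error only.

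The genes, lists and tests were chosen with earlier results of these data known. All members are named. From each list, genes were named among the 4 with the greatest called fold change in model against sham and the 3 with the smallest p in AC against model. Lmnb1, Lmnb2, Fntb, Icmt, Zmpste24 and Krt5 are named outside this rule, chosen after their values were seen. Of the 3 genes with the nearest profile, some are not reported here.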

Additional observations from a re-analysis of the deposited data

How the results depend on the processing

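All 9 members kept their direction against colon under every alternative tried, for model and AC tumours. Members called were 9 in model against sham and 8 with no filter or without sham 1 (8 to 9 with single libraries left out), and 9 in AC against sham, 7 with no filter and 7 to 9 with single libraries left out. In AC against model tumours, members called were 0, but 1 (Vim) by DESeq2 and 0 to 1 with single libraries left out. Genes called there were 0, but 105 with no filter, 305 by DESeq2, 94 with model 1 and AC 3 both left out, and 0 to 569 with single libraries left out (569 without AC 3). Krt7 turned to 0.15 with limma-voom and 0.11 with the replicate block, and single libraries left out gave -0.55 to 0.44 for Krt7, -2.38 to 4.26 for Krt8, -1.92 to 0.32 for Krt18, -3.06 to 5.79 for Krt19 and -0.17 to 0.29 for Nes. The Krt20 share of keratin in AC minus model ran from -11.5 to 11.3 percentage points with single libraries left out. The causes were not tested.

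The sample titles share replicate numbers, and same-numbered deviations correlated from -0.602 to 0.499 over 15415 genes. Model 1 and AC 3, which differ in number, correlated at 0.73. Such correlations cannot tell whether the numbers mark a pairing, and the titles state none. With the replicate block, genes called were 11774 in model against sham (12697 without it), 0 in AC against model and 11303 in AC against sham (12165 without it), and members called were 9, 0 and 9. Without scaling factors the median log2 fold change of all genes in model against sham moved from 0.12 to 0.72 and the share of higher calls from 52.8% to 67.3% (52.1% to 68.2% in AC against sham). Low counts limit Krt23, and Krt7 in every tumour (10 to 71 counts). They also limit Krt8, Krt18 and Krt19 in model 2, model 3, AC 1 and AC 2, where colonic epithelial markers were low.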
